A study of Rattus norvegicus with 13 samples.

Results

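The genes described here are 5 Wnt ligands, Wnt4, Wnt5a, Wnt7b, Wnt10a and Wnt16, out of 17 Wnt genes and 14506 genes measured in all. They were chosen by symbol with their differences between cell types in these same data already known, so their levels and differences are given as a description with standard errors and without tests. Each has 1 probe set that carries its symbol alone, and all 5 were measured on every array. The study profiled RNA of cultured cells from adult Sprague Dawley rats on 13 Affymetrix Rat Gene 1.0 ST arrays. Skin-derived precursors (SKPs), dermal cells with neural crest-like properties, came from dorsal trunk, ventral trunk and facial skin (3 independent isolates each). Mesenchymal stromal cells (MSCs), an adult mesenchymal cell used for comparison, gave 4 samples. All cells had been passaged 2 times and none carried a stated treatment or genetic change. The sources used here do not name the tissue of origin of the MSCs or the culture media.

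Wnt ligands are secreted, lipid-modified glycoproteins. The acyltransferase Porcn attaches the lipid, the carrier Wls brings the ligand to the cell surface, and Frizzled receptors receive it together with Lrp5 or Lrp6, which stabilises beta-catenin, or with Ror and Ryk receptors, which act without it. In skin, Wnt signals between epidermis and dermis start hair follicle formation and later drive the hair cycle. Wnt5a is the best-known ligand of the branch that does not use beta-catenin, and Wnt10a and Wnt7b mostly act through beta-catenin. Wnt4 is known for its part in kidney tubule and ovary development, and Wnt16 for its effect on the thickness of cortical bone.

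Expression is given as log2 values made by the authors with RMA, on which a step of 1 is a 2-fold difference, and levels of different genes cannot be set against each other. Array medians lay between 4.91 and 5.01. The mean of 6 SKP markers (Sox2, Nes, Ngfr, Snai2, Twist1, Pax3) ran from 6.89 to 7.46 for facial SKPs, 6.92 to 7.15 for ventral SKPs and 5.83 to 6.71 for dorsal SKPs, against 5.96 to 6.39 in MSCs. Dorsal array 3 was the lowest of these, and it was also the lowest for 8 mesenchymal markers (9.82, other arrays 11.01 to 11.60). The 6 SKP markers did not move together. Group means of Sox2, Ngfr and Twist1 were higher in all SKP regions than in MSCs. Snai2 was highest in MSCs (8.93). Nes was higher in MSCs (5.55) than in dorsal (4.31) or facial SKPs (4.79), and highest in ventral SKPs (7.54). Pax3 was high in facial SKPs alone (8.68, other groups 4.02 to 4.34). The SKP marker mean therefore does not rank the groups by SKP identity. Macrophage and leukocyte markers (15 of 15 measured) differed between isolates, with means of 7.02, 5.14 and 4.25 on dorsal, 7.32, 6.15 and 9.69 on facial and 5.48 to 5.87 on ventral arrays, against 4.18 to 4.67 in MSCs. The ventral excess over MSCs was uneven. It was largest in Cd74 (8.48, MSCs 4.54), Cd68 (9.07, MSCs 5.53) and Cd53 (7.12, MSCs 4.30), and smaller in Ptprc, Lyz2, Fcer1g and Laptm5. Csf1r (4.53, MSCs 4.44), Adgre1 (2.94, MSCs 2.82), Aif1, Spi1 and Cx3cr1 were near the MSC level. The marker mean alone thus does not show that macrophages were present in ventral SKPs. Of 14 keratinocyte markers, 10 were measured. Their mean lay between 3.78 and 3.98 on all 13 arrays, and 5 of the 10 were below background in every group. Single markers did differ, as Col17a1 was highest in ventral SKPs (6.55, other groups 5.38 to 5.49). Cdh1 was highest in facial SKPs (4.65 ± 1.13, SD, n = 3, MSCs 3.81). Melanocyte markers (5 of 7 measured, 2 of them below background in every group) had a mean of 5.26 to 5.72 on dorsal, 5.31 to 5.53 on ventral and 4.70 to 5.09 on facial arrays, each above the 4.36 to 4.65 of MSC arrays. The higher SKP means lay mostly in Mitf (8.26 to 8.57 in SKP regions, MSCs 6.15) and Mlana (5.46 to 7.59, MSCs 5.07). Sox10 differed little (5.17 to 5.33, MSCs 5.06). Tyrp1 was lower in every SKP region than in MSCs. Tyr was lower in dorsal and facial SKPs and level with MSCs in ventral SKPs. The melanocyte marker mean alone thus does not show that melanocytes were present. The part of melanocyte markers in the ligand differences was not tested. Background was the 25th percentile of the genes' group means, 3.79 to 3.84. The 95th percentile of 1105 olfactory receptor genes, a family known for its use in smell, was 3.94 to 4.04. All 5 Wnt ligands were above both limits in all 4 groups. In bulk cultures fewer cells that express a gene and less RNA per cell cannot be told apart.

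SKPs had higher levels of Wnt5a, Wnt7b, Wnt10a and Wnt16 than MSCs in every region. For these 4 of the 5 genes each of the 9 SKP arrays lay above each of the 4 MSC arrays, an arrangement that 6.6% of all genes showed. The exception was Wnt4, which was high in dorsal and facial SKPs and at the MSC level in ventral SKPs. Because the genes were chosen with these differences known, the share is given for scale alone.

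**Figure D1:**
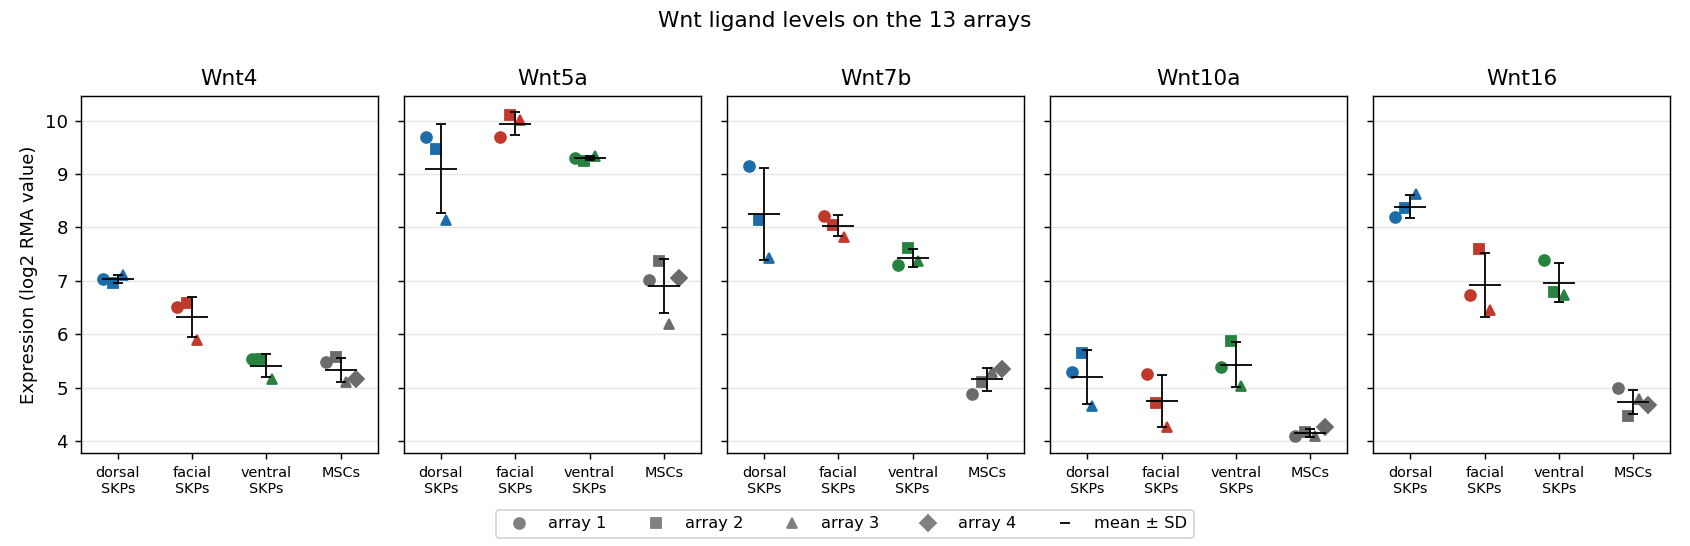
Expression (log2 RMA value) of 5 Wnt ligands on 13 arrays, with 1 panel per gene, a column of points per group, a symbol per array number, and black marks for the mean and SD of the group. Wnt16 stands highest on the dorsal arrays, Wnt4 steps down from dorsal to facial to ventral SKPs, and MSC arrays are lowest for every gene apart from Wnt4, where they overlap with ventral SKPs.

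The 250 bases before the annotated start are printed for Wnt16, which was higher in dorsal than in other SKPs, and Wnt10a, whose mean was highest in ventral SKPs, because these windows lie wholly outside the annotated genes. They come from RefSeq promoters of build GRCr8, both on the plus strand, Wnt16 at chr4:51786478-51786727 and Wnt10a at chr9:83798344-83798593. Capitals mark matches on either strand to the AP-1 motif TGANTCA and the CCAAT box.
Wnt16: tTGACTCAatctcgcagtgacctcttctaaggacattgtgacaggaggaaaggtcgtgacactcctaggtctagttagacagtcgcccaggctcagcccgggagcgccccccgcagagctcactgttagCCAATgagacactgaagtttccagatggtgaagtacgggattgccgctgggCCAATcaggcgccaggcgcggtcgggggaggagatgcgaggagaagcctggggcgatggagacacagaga
Wnt10a: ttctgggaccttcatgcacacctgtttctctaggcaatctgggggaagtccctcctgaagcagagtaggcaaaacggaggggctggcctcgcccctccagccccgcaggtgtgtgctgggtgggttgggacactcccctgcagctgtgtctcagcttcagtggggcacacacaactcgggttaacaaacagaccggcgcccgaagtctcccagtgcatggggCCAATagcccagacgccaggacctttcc
Wnt16 held 1 AP-1 match, 249 bases before the start, and 2 CCAAT boxes, 121 and 70 bases before it, and Wnt10a held 1 CCAAT box, 28 bases before the start. Of 33469 promoter windows of the same length 6.34% held the AP-1 motif and 34% a CCAAT box on either strand. Promoters of 4 of the 5 ligands were in the table. None of the 4 windows held TATAAA (12.9% of all windows), CTTTGAT (3.15%) or CTTTGTT (5.14%), the last 2 being core letters of TCF and LEF sites. The Wnt4 and Wnt5a windows lie at least partly inside the annotated genes and are not printed. The Wnt4 window was made of G and C to 86.4%, against a median of 51.2% over all windows, and held 9 matches to the GC box GGGCGG, some of which overlap. A GC box occurred in 30.5% of all windows and in none of the other 3. These matches describe the letters of the windows and say nothing of binding.

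Wnt16 was highest in dorsal SKPs. It stood at 8.19, 8.36 and 8.62 on dorsal arrays 1, 2 and 3, at 6.73, 7.60 and 6.46 on facial arrays, at 7.38, 6.79 and 6.73 on ventral arrays, and at 4.99, 4.47, 4.79 and 4.68 on MSC arrays. Every dorsal array was above every other SKP array, facial and ventral arrays overlapped, and all SKP arrays were above MSCs. The group means were 8.39 ± 0.22 (SD, n = 3) in dorsal, 6.97 ± 0.36 (n = 3) in ventral, 6.93 ± 0.60 (n = 3) in facial SKPs and 4.73 ± 0.22 (n = 4) in MSCs. Dorsal SKPs thus had 12.6-fold the MSC level (log2 difference 3.66, SE 0.26), facial SKPs 4.59-fold (2.20, SE 0.26) and ventral SKPs 4.71-fold (2.24, SE 0.26). The dorsal level exceeded the facial one by 1.46 (SE 0.27) and the ventral one by 1.42 (SE 0.27), whereas facial and ventral SKPs were apart by 0.04 (log2 difference -0.04, SE 0.27), far less than the SD of either. Within facial SKPs the highest Wnt16 value was on array 2, which had the lowest macrophage marker mean of the 3 (6.15), and the lowest Wnt16 value was on array 3, which had the highest (9.69). With the macrophage marker mean as a covariate, dorsal minus facial was 0.93 (SE 0.27), facial minus ventral was 0.46 (SE 0.26) and facial minus MSCs was 2.99 (SE 0.32). That marker mean did not overlap between facial (6.15 to 9.69), ventral (5.48 to 5.87) and MSC arrays (4.18 to 4.67). Group and this marker mean therefore cannot be cleanly told apart, and values with this covariate, here and below, are not corrected estimates.

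Wnt4 showed a step at each region. Its values were 7.03, 6.96 and 7.10 on dorsal, 6.51, 6.58 and 5.89 on facial and 5.54, 5.54 and 5.16 on ventral arrays, and 5.49, 5.57, 5.11 and 5.16 on MSC arrays 1 to 4. No dorsal array overlapped with a facial one and no facial array with a ventral one, while ventral SKPs and MSCs covered the same range. Means were 7.03 ± 0.07 (SD, n = 3) in dorsal SKPs, 6.32 ± 0.38 (n = 3) in facial SKPs, 5.41 ± 0.22 (n = 3) in ventral SKPs and 5.33 ± 0.23 (n = 4) in MSCs. Against MSCs the log2 difference was 1.70 (SE 0.18, 3.25-fold) for dorsal SKPs, 0.99 (SE 0.18, 1.99-fold) for facial SKPs and 0.08 (SE 0.18, 1.06-fold) for ventral SKPs. Dorsal exceeded ventral SKPs by 1.62 (SE 0.19), facial exceeded ventral SKPs by 0.91 (SE 0.19) and dorsal exceeded facial SKPs by 0.71 (SE 0.19). The dorsal to facial step was 0.42 (SE 0.23) with the macrophage marker mean as a covariate and 0.45 (SE 0.19) without dorsal array 3 and facial array 3, the lowest facial array. With that covariate facial minus MSCs was 1.41 (SE 0.27) and facial minus ventral 1.17 (SE 0.22).

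Wnt5a had its highest mean in facial SKPs. Arrays 1, 2 and 3 gave 9.69, 10.11 and 10.02 in facial, 9.70, 9.46 and 8.14 in dorsal and 9.30, 9.25 and 9.34 in ventral SKPs, and MSC arrays 1 to 4 gave 7.01, 7.37, 6.19 and 7.05. Facial arrays lay above all ventral ones, dorsal array 1 was level with the lowest facial array, dorsal array 2 lay between facial and ventral arrays, and dorsal array 3 was the lowest SKP array. The means were 9.94 ± 0.22 (SD, n = 3), 9.10 ± 0.84 (n = 3), 9.30 ± 0.04 (n = 3) and 6.90 ± 0.50 (n = 4) in the order facial, dorsal, ventral and MSC. Facial SKPs had 8.20-fold the MSC level (log2 difference 3.04, SE 0.34), ventral SKPs 5.25-fold (2.39, SE 0.34) and dorsal SKPs 4.59-fold (2.20, SE 0.34). Between regions Wnt5a differed by 0.64 (SE 0.37) for facial minus ventral, by -0.84 (SE 0.37) for dorsal minus facial and by -0.19 (SE 0.37) for dorsal minus ventral. The last of these turned to 0.29 without dorsal array 3, and dorsal minus facial became -0.36 (SE 0.27). Without dorsal array 3 and facial array 3 dorsal minus facial was -0.32 (SE 0.31). The order of dorsal and ventral SKPs therefore rested on dorsal array 3, as did much of the facial excess over dorsal SKPs. Facial minus MSCs was 2.38 (SE 0.54) with the macrophage marker mean as a covariate.

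Wnt7b had the largest SKP to MSC difference of the 5 as a mean over regions (2.74, SE 0.24, 6.70-fold), within its SE of that of Wnt16 (2.70, SE 0.20). Its values were 9.15, 8.15 and 7.44 on dorsal, 8.22, 8.05 and 7.82 on facial and 7.30, 7.61 and 7.37 on ventral arrays against 4.89, 5.10, 5.29 and 5.35 on MSC arrays 1 to 4. The dorsal arrays spread over the whole range of the SKPs, from dorsal array 1 above all others to dorsal array 3 among the ventral ones, and facial arrays lay above ventral ones. Means were 8.25 ± 0.86 (SD, n = 3) in dorsal, 8.03 ± 0.20 (n = 3) in facial, 7.43 ± 0.16 (n = 3) in ventral SKPs and 5.16 ± 0.21 (n = 4) in MSCs. Against MSCs the log2 differences were 3.09 (SE 0.30), 2.87 (SE 0.30) and 2.27 (SE 0.30) in dorsal, facial and ventral SKPs. Dorsal minus facial was 0.22 (SE 0.32), and it was -0.24 without dorsal array 1 and 0.62 without dorsal array 3, so no order of these regions is given. Dorsal minus ventral was 0.82 (SE 0.32), with 0.36 without dorsal array 1 and 1.22 without dorsal array 3, and facial minus ventral was 0.60 (SE 0.32). Facial minus MSCs was 2.33 (SE 0.48) with the macrophage marker mean as a covariate.

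Wnt10a was dim and had the smallest margin of the 4 genes without overlap. It read 5.29, 5.65 and 4.66 on dorsal, 5.25, 4.72 and 4.27 on facial, 5.39, 5.87 and 5.04 on ventral and 4.11, 4.17, 4.10 and 4.26 on MSC arrays. The lowest SKP array, facial array 3 at 4.269, was barely above the highest MSC array at 4.265, and the MSC arrays lay just over the limit set by olfactory receptor genes (4.04 in MSCs). The means were 5.43 ± 0.42 (SD, n = 3) in ventral, 5.20 ± 0.50 (n = 3) in dorsal, 4.75 ± 0.49 (n = 3) in facial SKPs and 4.16 ± 0.08 (n = 4) in MSCs. Neighbouring regions in that order differed by 0.23 and 0.45, less than the larger SD of each pair (0.50), and their arrays overlapped. Log2 differences from MSCs were 1.27 (SE 0.27) in ventral, 1.04 (SE 0.27) in dorsal and 0.59 (SE 0.27) in facial SKPs.

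**Figure D2:**
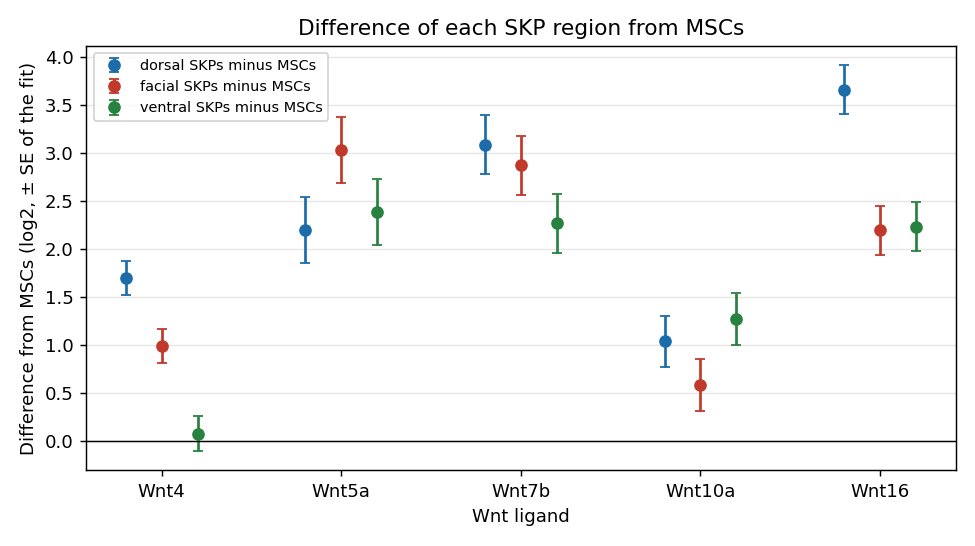
Log2 difference of each SKP region from MSCs for the 5 Wnt ligands, with points for the fitted difference and bars for its SE. The 3 regions share the same 4 MSC arrays. Wnt16 reaches 3.66 in dorsal SKPs against 2.20 and 2.24 in facial and ventral SKPs, and Wnt4 falls from 1.70 in dorsal to 0.08 in ventral SKPs.

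The order of the region means was thus not the same for all 5 genes, but parts of it were not settled. These were dorsal against facial SKPs for Wnt7b and dorsal against ventral SKPs for Wnt5a. Facial against ventral SKPs for Wnt16 and neighbouring regions for Wnt10a were not settled either. Wnt4 and Wnt16 were higher on every dorsal array than on every facial array, as for 10.3% of all genes, and likewise higher than on every ventral array, as for 15.4%. Wnt4, Wnt5a and Wnt7b were higher on every facial than on every ventral array, as for 16.8%. Dorsal array 3 did not move all ligands alike: of the 3 dorsal arrays it was the lowest for Wnt5a, Wnt7b and Wnt10a and the highest for Wnt4 and Wnt16. Facial array 3 was the lowest facial array for Wnt4, Wnt7b, Wnt10a and Wnt16 but not for Wnt5a. The same MSC arrays enter every difference from MSCs, so the 3 regional values of a gene are not independent.

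The other 12 measured Wnt ligands moved little. Their group means spanned at most 0.93, and less than 0.5 for 9 of them, whereas those of the 5 genes spanned at least 1.27, a contrast that the choice of genes makes. Wnt2b and Wnt8a were below both background limits in every group. By limma with Benjamini-Hochberg adjustment over all genes, 3 of the 12 rose in SKPs and 0 fell (limma, adjusted p under 0.05), against 13.1% and 12.2% of all genes. Their median difference was 0.0003, against -0.02 over all genes. Wnt9a rose by 0.60 (SE 0.13, adjusted p = 0.00481), Wnt5b, a close relative of Wnt5a, by 0.57 (SE 0.13, adjusted p = 0.00714) and Wnt6 by 0.39 (SE 0.08, adjusted p = 0.00442). With the macrophage marker mean as a covariate Wnt9a was at 0.56 (SE 0.18, adjusted p = 0.065) and Wnt5b at 0.49 (SE 0.18, adjusted p = 0.104), differences close to those without it that no longer passed. Against MSCs Wnt6 passed in ventral SKPs (0.93, SE 0.10, adjusted p = 7.2e-05) and not in dorsal (0.13, adjusted p = 0.473) or facial SKPs (0.10, adjusted p = 0.563). It stood at 5.76 to 5.80 on the ventral arrays, above the highest dorsal array (5.11), facial array (5.06) and MSC array (4.97). Its dorsal minus ventral difference was -0.80 (SE 0.11, adjusted p = 0.00232) and its facial minus ventral difference -0.82 (SE 0.11, adjusted p = 0.00169). Endothelial markers (6 of 7 measured) were also highest on the ventral arrays, with means of 4.96 to 5.54 against 3.52 to 4.21 on all others, and their part in the Wnt6 level was not tested.

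**Figure D3:**
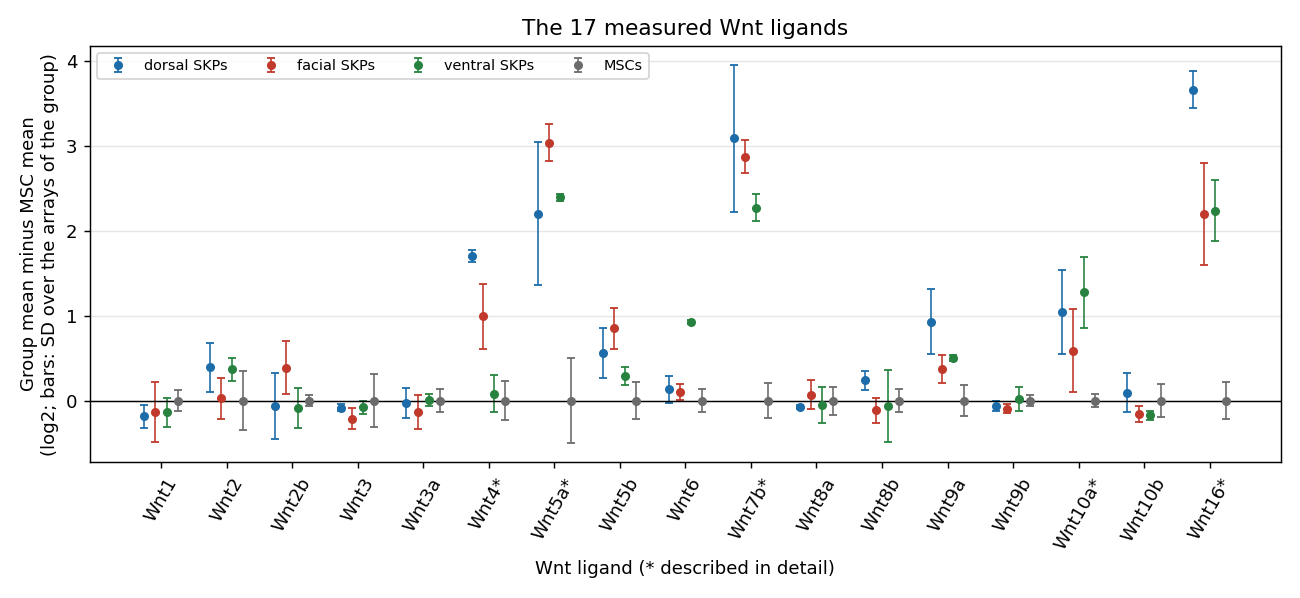
Group mean minus MSC mean (log2) of all 17 measured Wnt ligands, with points for the 4 groups and bars for the SD over the arrays of a group. An asterisk marks the 5 genes described in detail. The other 12 ligands stay within 0.93 between their highest and lowest group means.

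The 8 lists of Wnt pathway genes were written with earlier results of these data known, so their shares are given for scale alone. They held 107 distinct measured genes, which include the 12 other ligands and their 3 calls but not the 5 genes described in detail. Of these 29 rose and 14 fell in SKPs against MSCs, which is 27.1% and 13.1% against 13.1% and 12.2% of all genes, and their median difference was 0.02. Between dorsal and facial SKPs 1 was higher and 4 were lower (0.462% and 0.793% of all genes, 1.25% in either direction). Between dorsal and ventral SKPs 3 were higher and 7 lower (2.35% and 3.76%, 6.11% in either direction), and between facial and ventral SKPs 6 were higher and 6 lower (2.25% and 4.36%, 6.6% in either direction). Leaving out 1 array moved the count for dorsal minus ventral SKPs to between 1 and 7 higher (1 without ventral array 1 or 3, 5 without dorsal array 2, 7 without dorsal array 3) and to 4 lower without ventral array 1 or 2. For dorsal minus facial SKPs 3 were higher without dorsal array 2 or facial array 1 and 2 without dorsal array 3. For facial minus ventral SKPs 10 were higher without dorsal array 3 and 3 were lower without ventral array 1. With the macrophage marker mean as a covariate 19 pathway genes rose and 7 fell against MSCs, while over all genes the counts went from 1896 to 1143 higher and from 1776 to 1102 lower.

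**Figure D4:**
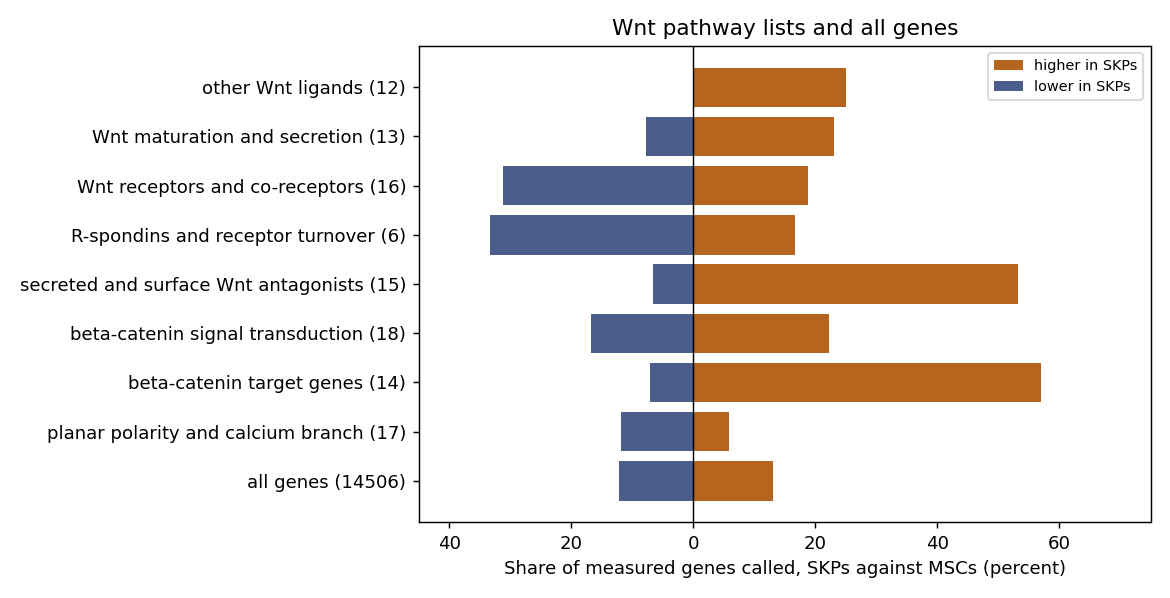
Share of measured genes called higher (right) or lower (left) in SKPs than in MSCs, in percent, for each Wnt pathway list and for all 14506 genes. The number of measured genes stands in brackets. Antagonists and beta-catenin target genes show 53.3% and 57.1% called higher, against 13.1% of all genes. The lists were written with earlier results of these data known.

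The counts for single lists that follow are for SKPs against MSCs, where 13.1% of all genes rose and 12.2% fell. Of 13 measured genes of Wnt maturation and secretion 3 rose and 1 fell, with a median of 0.07. Porcn (0.44, SE 0.19, adjusted p = 0.109) and Wls (0.04, SE 0.21, adjusted p = 0.918), singled out for their role and outside the naming rule, did not pass. The retromer subunit Vps26a rose by 0.61 (SE 0.15, adjusted p = 0.00953), and with the replicate number as a block its difference was 0.53 (SE 0.17, adjusted p = 0.0618). The heparan sulfate sulfatase Sulf2 rose by 2.61 (SE 0.31, adjusted p = 7.68e-05) and the related Sulf1 fell by 1.98 (SE 0.20, adjusted p = 2.38e-05). Sulf1 also set the regions apart, at 8.63 ± 0.48 (SD, n = 3) in dorsal, 8.16 ± 0.24 in ventral and 6.42 ± 0.18 in facial SKPs against 9.72 ± 0.42 in MSCs (n = 4), and dorsal minus facial was 2.20 (SE 0.27, adjusted p = 0.00196). Gpc3, a glypican that carries heparan sulfate chains, rose by 1.97 (SE 0.19, adjusted p = 1.61e-05) from an MSC mean of 3.88, close to background.

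Receptors and co-receptors split, with 3 of 16 up and 5 down in SKPs and a median of -0.19. The co-receptor Lrp5 rose by 1.71 (SE 0.24, adjusted p = 0.000316). It read 8.68, 9.22 and 7.68 on dorsal, 9.28, 9.28 and 9.47 on facial, 8.22, 8.90 and 8.46 on ventral and 6.93, 6.89, 7.61 and 6.93 on MSC arrays, so dorsal array 3 and MSC array 3 nearly met. The receptor Fzd4 fell by 2.55 (SE 0.52, adjusted p = 0.00326), at 4.59 to 5.03 on the SKP arrays. MSC arrays 1 and 2 read 5.66 and 6.21 and arrays 3 and 4 read 8.73 and 8.89, so the size of the Fzd4 difference depended on the MSC array. With the macrophage marker mean as a covariate it was -2.32 (SE 0.73, adjusted p = 0.0544). The same pairs of MSC arrays stood apart for Fzd8 (7.02 and 7.79 against 9.92 and 9.64). They did so in the other direction for Lgr5 (6.46 and 6.11 against 3.33 and 3.45). Among the 5 ligands Wnt4 (5.49 and 5.57 against 5.11 and 5.16) and Wnt7b (4.89 and 5.10 against 5.29 and 5.35) also split, with smaller gaps. Wnt5a, Wnt10a and Wnt16 did not, as Wnt16 read 4.99 and 4.47 against 4.79 and 4.68. Whether the 4 MSC arrays are independent of each other was not tested. Fzd6 fell by 1.62 (SE 0.14, adjusted p = 7.91e-06) and was also lower in dorsal than in facial SKPs (-1.65, SE 0.19, adjusted p = 0.00151), with a dorsal mean of 2.82, below background. Fzd8 fell by 1.61 (SE 0.45, adjusted p = 0.0192), but missed the threshold without MSC array 3 (-1.17, adjusted p = 0.0665) or MSC array 4 (-1.26, adjusted p = 0.0768). The same held with the replicate number as a block (-1.26, adjusted p = 0.0626) and with the macrophage covariate (-1.29, adjusted p = 0.205).

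Of 6 R-spondins and receptor turnover genes 1 rose and 2 fell. Lgr5 fell by 1.82 (SE 0.52, adjusted p = 0.0232), but MSC arrays 3 and 4 (3.33 and 3.45) lay within the SKP range (2.72 to 3.47). It missed the threshold without MSC array 1 (adjusted p = 0.0782) or MSC array 2 (adjusted p = 0.0867) and with the macrophage covariate (adjusted p = 0.112). The R-spondin receptor Lgr4 fell by 2.74 (SE 0.18, adjusted p = 7.68e-07), at 6.20 to 6.81 on all SKP arrays against 8.72 to 9.80 on MSC arrays. Its ligand Rspo3 rose by 2.09 (SE 0.43, adjusted p = 0.00341), and its highest mean was in ventral SKPs (7.95 ± 0.28, SD, n = 3). No difference of Rspo3 between regions passed (dorsal minus ventral adjusted p = 0.134, facial minus ventral adjusted p = 0.266). Facial array 1 (7.73) stood above ventral array 1 (7.64). Rspo1 was lower in dorsal than in facial SKPs (-1.49, SE 0.23, adjusted p = 0.00842), and with the macrophage covariate the difference was -1.48 (SE 0.31, adjusted p = 0.107).

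**Figure D5:**
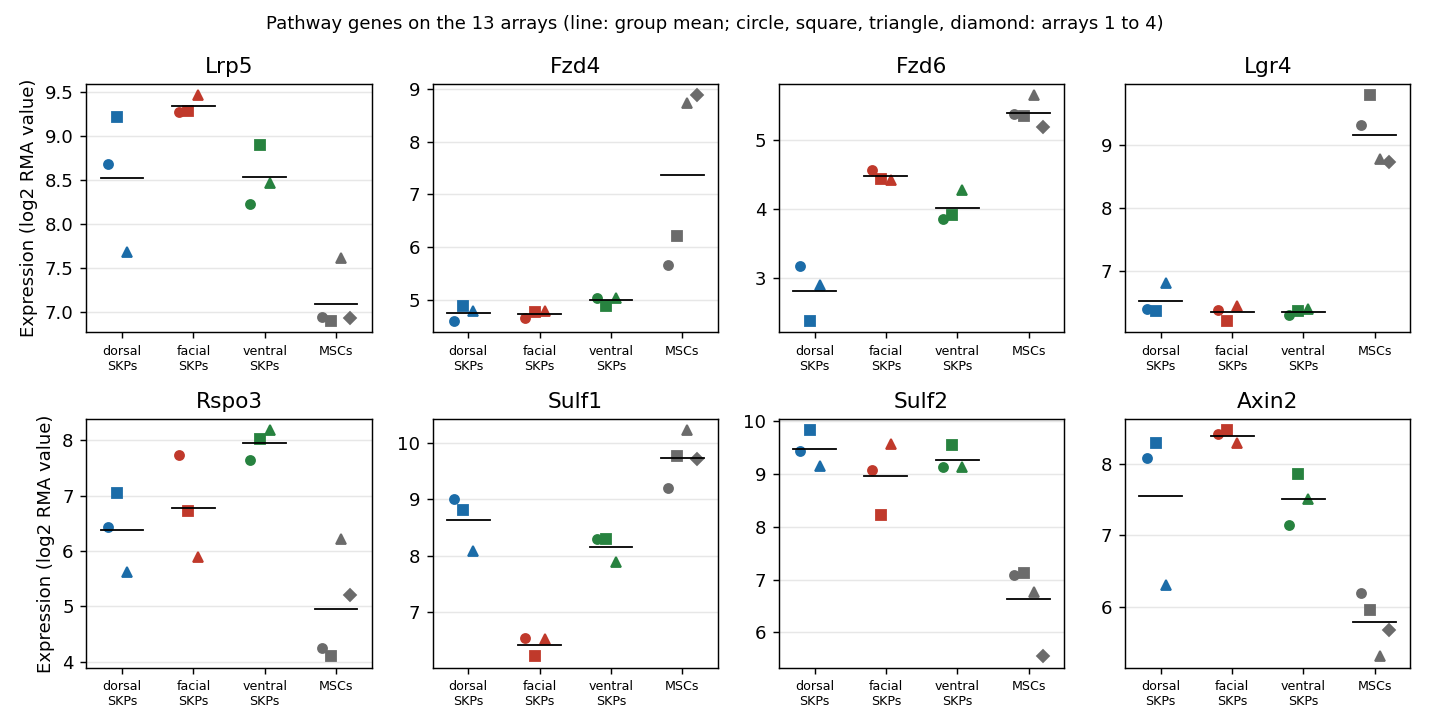
Expression (log2 RMA value) of 8 pathway genes on the 13 arrays, with a symbol per array number, a line at each group mean and a separate vertical scale for each gene. Fzd4 shows the MSC arrays in pairs (5.66 and 6.21 against 8.73 and 8.89), and Lgr4 shows no overlap between SKPs and MSCs.

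Of 15 secreted and surface antagonists 8 rose and 1 fell, with a median of 0.63. Of 5 measured Frizzled-related proteins, which bind Wnt ligands, Sfrp2 and Frzb passed between regions and Sfrp1, Sfrp4 and Sfrp5 did not. Sfrp2 was highest in facial SKPs (9.58 ± 0.58, SD, n = 3) and lowest in ventral ones (5.35 ± 0.27), with facial minus ventral at 4.22 (SE 0.36, adjusted p = 5.94e-05), whereas Frzb stood at 10.08 ± 0.27 in ventral SKPs and at 4.84 ± 0.51 in dorsal ones (dorsal minus ventral -5.24, SE 0.28, adjusted p = 2.65e-06). Among 18 beta-catenin signal transduction genes 4 rose and 3 fell, with a median of -0.07, and beta-catenin itself (Ctnnb1) rose by 0.80 (SE 0.08, adjusted p = 2.3e-05). Dvl1, which relays the signal from Frizzled, was lower in ventral than in dorsal SKPs (dorsal minus ventral 0.70, SE 0.09, adjusted p = 0.00106). Among 14 beta-catenin target genes 8 rose and 1 fell, with a median of 0.71. The gene that fell was Lgr5, already counted with the receptor turnover genes. Notum and Dkk1, both among those that rose, were also counted with the antagonists. The feedback inhibitor Axin2 rose by 2.03 (SE 0.31, adjusted p = 0.000547), at 8.07, 8.29 and 6.30 on dorsal arrays, 8.41, 8.46 and 8.29 on facial, 7.14, 7.85 and 7.51 on ventral and 5.30 to 6.18 on MSC arrays, so dorsal array 3 stood near MSCs. With the macrophage marker mean as a covariate 3 target genes and 5 antagonists rose, beside the smaller number of calls over all genes given above. A lost call was not always a smaller difference, since the feedback inhibitor Nkd2 was at 1.45 (SE 0.45, adjusted p = 0.0529) against 1.39 without the covariate. Among 17 genes of the planar polarity and calcium branch 1 rose and 2 fell, with a median of -0.05, and the calcium-dependent kinase subunit Camk2g fell by 2.21 (SE 0.13, adjusted p = 4.86e-07).

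The genes whose pattern over the 13 arrays was closest to each ligand were sought among 2435 genes, outside the Wnt family, with group means that spanned at least 1 and an above-background level in at least 1 group. The measure was Pearson's r, given without a test, since the arrays fall into the same 4 groups for all genes and the step from MSCs to SKPs makes up much of it. For Wnt16 these were the ubiquitin ligase subunit Fbxo32 (r = 0.963), the synaptic vesicle protein Syngr1 (r = 0.961) and the folate enzyme Aldh1l1 (r = 0.945). Fbxo32 shared the high dorsal level, with a mean of 9.49 in dorsal SKPs against 7.66 in facial SKPs and 7.95 in ventral SKPs. Wnt4 was followed less closely, by Actr3b (r = 0.892), Rin2 (r = 0.892) and the presenilin Psen2 (r = 0.885). Nearest to Wnt5a were the fibroblast activation protein Fap (r = 0.978), the RNA-binding protein Zfp36l1 (r = 0.978) and the kinase subunit Pik3r1 (r = 0.972). Fap had the same order of means, 8.03 in facial, 7.45 in ventral and 6.75 in dorsal SKPs and 4.82 in MSCs, except that its ventral and dorsal means were farther apart. For Wnt7b they were the cytokine Il7 (r = 0.967), Pcp4 (r = 0.966) and the collagen Col23a1 (r = 0.966). For Wnt10a they were the metalloproteinase Mmp27 (r = 0.921), the calcium pump Atp2b4 (r = 0.911) and the homeobox factor Alx4 (r = 0.908), which was also highest in ventral SKPs (9.10) and lowest in MSCs (5.52).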

How the data were processed

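The files hold log2 intensities summarised by RMA in Affymetrix Expression Console (gene-core analysis) by the authors, per the labels' descriptions; the submitters' processing notes also name limma, with no versions. Among 29215 probe sets, 15310 have 1 symbol in the platform annotation, 323 have several and 13582 have none in the table used, and only the first were analysed. Names were brought up to date from RefSeq's gene table (assembly GRCr8, names only) by Entrez identifier (15279) or accession (6), and 25 stayed as they were. For 527 genes with more than 1 probe set the one of highest mean was taken. This gave 14506 genes, with no filter on level.

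Group means of 13 arrays were fitted in 1 model (limma 3.58.1, R 4.3.3: moderated standard errors, two-sided tests, Benjamini-Hochberg over all genes, called at an adjusted p under 0.05), after the script had been tested on simulated data. SKPs minus MSCs is the mean of the 3 region means minus the MSC mean. No 2 arrays held identical values. The number of arrays limits the precision, and p-values measure the spread between the arrays of a group. The series' design text calls the isolates independent for SKPs, and the tests treat the MSC arrays as independent too. The 5 ligands, the lists, the tests and the alternatives were chosen with earlier results of these data known. Genes named are the ligands, other measured Wnt ligands by their level, up to 4 called genes with the largest difference per list and comparison, and the 3 genes with the highest r per ligand; others are named as outside this rule. Alternatives changed the scaling, the probe set rule, the filter, the variance prior, the replicate block, a macrophage covariate and the arrays included.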

Additional observations from a re-analysis of the deposited data

Results flagged for a closer look

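In MSCs, the single group of 4 to 10 arrays, 48 genes (all Wnt ligands and the named pathway genes) were checked for an array far from the others by the ratio of its gap to the group's range, and 3 stood out, where chance gives about 1 in 20. None of the 5 ligands was among them. Wnt3a read 4.67 on MSC array 3 against 4.39 to 4.41 on the others (ratio 0.961). Wnt5b read 4.53 on MSC array 1 against 4.94 to 5.01 (ratio 0.856). Lrp5 read 7.61 on MSC array 3 against 6.89 to 6.93 (ratio 0.939).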

How the results depend on the processing

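Over 21 alternatives, 20 of them planned, the SKP minus MSC differences of the 5 ligands kept their sign. Leaving out each array in turn they ran from 0.85 to 1.00 for Wnt4, 2.30 to 2.70 for Wnt5a, 2.59 to 2.88 for Wnt7b, 0.88 to 1.06 for Wnt10a and 2.59 to 2.78 for Wnt16. With the macrophage marker mean as a covariate Wnt4 was at 1.16 and Wnt16 at 3.14, and 19 pathway genes rose and 7 fell against MSCs, 2 fell between dorsal and facial SKPs and 3 rose between facial and ventral SKPs. Of 35 differences of the ligands, 19 moved by less than the residual SD under all alternatives.

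Leaving out each array, pathway genes numbered 25 to 35 higher and 13 to 17 lower against MSCs, 1 to 3 higher and 4 to 4 lower for dorsal minus facial, 1 to 7 higher and 4 to 7 lower for dorsal minus ventral, and 4 to 10 higher and 3 to 8 lower for facial minus ventral SKPs. The arrays behind changes over 1.5-fold were dorsal arrays 2 (3) and 3 (2) and facial array 1 (3) for dorsal minus facial higher, dorsal arrays 2 (5) and 3 (7) and ventral arrays 1 (1) and 3 (1) for dorsal minus ventral higher, ventral arrays 1 (4) and 2 (4) for dorsal minus ventral lower, and dorsal array 3 (10, higher) and ventral array 1 (3, lower) for facial minus ventral SKPs, with the count without that array in brackets. Among genes above background 5 rose for dorsal minus ventral, and 7 did without dorsal array 3 and facial array 3, an alternative chosen after seeing the data, as was the olfactory receptor limit. The cause was not tested.

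Same-numbered arrays of different groups had deviations with a mean r of 0.0004 (-0.12 to 0.20), and 6 of 12 arrays correlated best with their own number. These values neither show nor exclude a pairing by number. With the number as a replicate block, the Wnt5a difference from MSCs was 2.59, and 25 pathway genes rose and 13 fell against MSCs. Of 54 named pathway results, 30 kept their call under all alternatives and 0 reversed.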
